A study of Mus musculus with 81 samples.

Results

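The nuclear-encoded genes of the mitochondrial respiratory chain were followed through macrophages with or without conditional deletion of the histone H3.3 genes. Members were all protein-coding genes whose symbol starts with Nduf, Sdha, Sdhb, Sdhc, Sdhd, Uqcr, Cox4, Cox5, Cox6, Cox7, Cox8 or Atp5, which gave 98 genes. The genes joined over the BMDM set libraries numbered 54079. By symbol, 36 belonged to complex I (NADH dehydrogenase), 4 to complex II (succinate dehydrogenase), 8 to complex III (the cytochrome bc1 complex), 20 to complex IV (cytochrome c oxidase) and 17 to complex V (ATP synthase). Despite their symbols, Ndufa4 and Ndufa4l2 were counted in complex IV. The rule does not reach Cyc1, a further subunit of complex III. The other 13 were assembly factors or associated genes: 8 Ndufaf genes for complex I, 4 Sdhaf genes for complex II and Atp5s. Atp5o has a further gene entry, also counted in complex V and tested in no experiment, so that the 98 genes hold 97 distinct symbols. A further 13 pseudogene or non-coding loci with a matching symbol were left out.

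RNA-seq had been run on mouse macrophages of genotype WT (H3f3a fl/fl H3f3b fl/fl without Cre) and H3.3cKO (cKO, the same floxed alleles with LysM cre/cre, which places Cre in both copies of the myeloid gene Lyz2), all on C57BL/6 with young adults of both sexes. Bone marrow-derived macrophages (BMDMs), grown in medium with M-CSF, were collected on days 3, 5 and 7, on day 8 with or without 12 h of interferon-gamma (IFNg), and on day 6 after culture without antibody, with an IFNAR1 antibody or with its isotype control. Peritoneal macrophages of both genotypes were also sequenced. A last experiment held 3 separate sets of WT and cKO BMDMs and cKO BMDMs that in addition lacked Sting, Mavs or Irf7 in the whole body (double KOs). The titles call the libraries of a group biological replicates: each group had 3, apart from the day 8 cKO groups with 2 each. In all, 79 of 81 libraries were used, since the labels of 2 day 8 cKO libraries gave conflicting treatments.

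The respiratory chain passes electrons from NADH (complex I) and succinate (complex II) to complex III, cytochrome c and complex IV, which reduces oxygen, and the proton gradient built on the way drives ATP synthesis by complex V. Most subunits are encoded in the nucleus, a small set of catalytic ones in mitochondrial DNA, so that the nuclear genes reported here give the larger part of each complex. In macrophages the chain is known to be remodelled on activation, when itaconate made by Acod1 inhibits succinate dehydrogenase.

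Totals of gene-assigned reads ran from 14419697 to 20220329 in the day 3 to 7 libraries, 3614967 to 10498769 on day 8, 7625225 to 23381318 in peritoneal cells, 5295144 to 34380735 in the antibody arms and 21504555 to 45581528 in the sets. The deleted genes were checked first. H3f3a lay between 1.21 and 15.3 CPM (counts scaled to library size) in the 43 cKO libraries and between 33.6 and 93.8 in the 36 WT libraries, whereas H3f3b overlapped (16.7 to 361 in cKO, 181 to 536 in WT). Its median was 187 CPM in cKO and 268 in WT. The study reports variable deletion of H3f3b, complete or partial by sample, and depletion of the protein in BMDMs. Comparisons of cKO with WT below are therefore not all comparisons with full loss of H3f3b RNA. All 6 macrophage markers had reads in every experiment, at a summed level of 2482 to 7446 CPM in cultured cells, and the summed neutrophil list went from at most 4205 CPM on day 3 to between 0.429 and 1.79 on day 8. The peritoneal macrophage markers Gata6 and Timd4 summed to 1136 to 1649 CPM in the peritoneal libraries and to at most 22.7 in cultured ones. The part of these lists, and of the interferon genes given below, in the results was not tested, and in bulk RNA fewer cells of a type and less RNA per cell cannot be told apart. One library stood apart: cKO day 8 IFNg replicate 1 was the shallowest (3614967 reads), had 57.1% unmapped reads against 12.6% to 18.3% in the other day 8 libraries, and had a scaling factor of 0.46, against 0.799 to 1.25 in the others. Counts by comparison and complex on day 8 are given with and without it.

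Levels were compared between members per kb of exon, in WT cells. Lengths count the annotated exon bases of a gene, from 360 for Cox8b to 8086 for Ndufs1, so that rankings of genes and complexes depend on the annotation. In WT cells of set 2, the most abundant members per kb were Cox8a (185 ± 5.86 CPM per kb, SD, n = 3), Cox6b1 (176 ± 13.3), Atp5b, the catalytic beta subunit of ATP synthase (162), Atp5a1, its alpha subunit (161), and Cox6a1 (134 ± 16). The mean level per kb over a complex was lowest for complex I, at 21.5 CPM per kb, and lay between 39.2 and 44.3 for complexes II to V in the same cells. Tissue-restricted isoforms were near the floor. Cox4i2 reached 0.571 CPM per kb against 92.1 for its ubiquitous partner Cox4i1, the muscle-type Cox6a2 1.03 against 134 for Cox6a1, and the testis-type Cox6b2 0.31 against 176 for Cox6b1. Of the ATP synthase c-ring genes, Atp5g3 (45.9) stood above Atp5g1 (12.3) and Atp5g2 (11.9) per kb. Atp5g1 and Atp5g2 did not differ beyond their spread on this scale only, since their values are divided by 4912 and 1675 exon bases. In the peritoneal libraries the means per kb were 42.4 for complex I, 90.3 for II, 67.3 for III, 54.5 for IV and 49.8 for V. Cultured WT groups lay below these for complexes I to III, but for complex IV WT cells after IFNg reached 62.7 and those of set 1 57.4, and WT cells on day 3 reached 52.8 for complex V. The study's methods name another library kit for these cells, so tissue and kit cannot be told apart and no test was made.

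**Figure D1:**
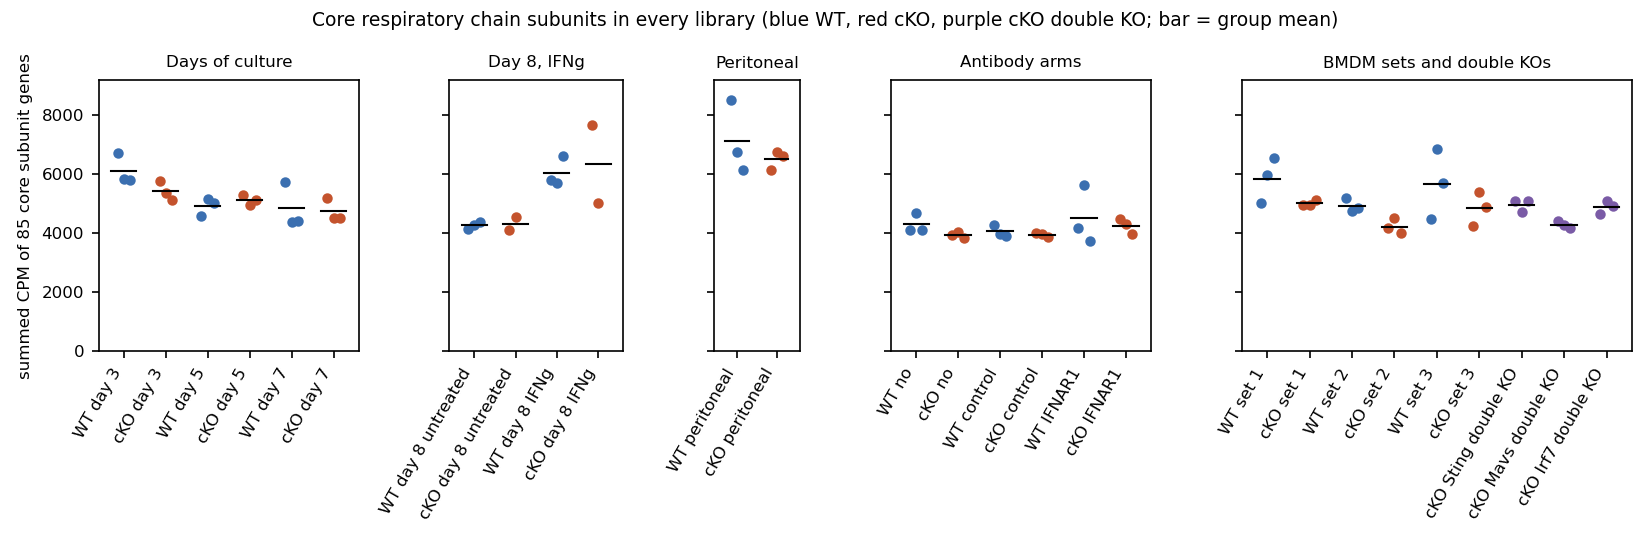
Summed CPM (vertical axis) of the 85 core subunit genes of complexes I to V in each library of the 5 experiments, WT in blue, cKO in red, double KOs in purple, bars at group means. The 3 WT IFNg libraries lie between 5704 and 6614 CPM, above all 3 untreated WT libraries at 4140 to 4391, and the highest cKO IFNg point is the library that stands apart.

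Promoters were read for the members on which the results below turn: Uqcrfs1, Uqcrh and Cox8a, which moved with IFNg and genotype, and Ndufaf4, which was lower after IFNg in cKO and higher in cKO of 2 of the 3 sets. Each window holds 250 bases before and 50 after the annotated start (RefSeq, GRCm38.p6), printed 5′ to 3′ on the gene's strand. Capitals mark matches on either strand to the motif strings searched.
Uqcrfs1, chr13:30545267-30545566, minus strand: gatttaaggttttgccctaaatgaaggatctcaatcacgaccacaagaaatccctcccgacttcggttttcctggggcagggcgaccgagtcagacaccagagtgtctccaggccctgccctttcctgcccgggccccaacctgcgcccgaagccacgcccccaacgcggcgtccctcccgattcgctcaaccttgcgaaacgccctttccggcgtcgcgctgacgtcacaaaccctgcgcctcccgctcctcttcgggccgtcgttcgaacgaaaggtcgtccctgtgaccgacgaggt
Uqcrh, chr4:116075021-116075320, minus strand: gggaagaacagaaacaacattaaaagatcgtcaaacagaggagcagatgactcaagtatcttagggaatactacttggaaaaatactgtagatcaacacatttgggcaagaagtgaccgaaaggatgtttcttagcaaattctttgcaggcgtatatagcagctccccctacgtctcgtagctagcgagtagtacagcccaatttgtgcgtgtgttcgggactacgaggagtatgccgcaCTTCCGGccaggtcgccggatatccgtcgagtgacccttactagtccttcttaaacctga
Cox8a, chr19:7217567-7217866, minus strand: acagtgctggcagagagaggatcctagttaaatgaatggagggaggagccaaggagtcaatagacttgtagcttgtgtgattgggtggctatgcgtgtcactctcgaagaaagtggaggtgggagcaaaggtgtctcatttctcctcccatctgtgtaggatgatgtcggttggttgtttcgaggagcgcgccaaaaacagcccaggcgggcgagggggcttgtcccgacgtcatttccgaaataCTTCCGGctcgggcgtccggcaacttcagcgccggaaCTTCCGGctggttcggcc
Ndufaf4, chr4:24897833-24898132, plus strand: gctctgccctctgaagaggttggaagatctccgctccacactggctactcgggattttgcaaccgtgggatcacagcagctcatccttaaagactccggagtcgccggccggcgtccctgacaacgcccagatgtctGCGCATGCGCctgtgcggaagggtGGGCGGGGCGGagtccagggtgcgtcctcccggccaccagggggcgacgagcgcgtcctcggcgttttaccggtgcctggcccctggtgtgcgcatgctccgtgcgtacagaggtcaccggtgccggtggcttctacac
The capitals in Uqcrh and Cox8a are the ETS string CCGGAAG read on the other strand, at -10 in Uqcrh and at -5 and 32 in Cox8a, where 0 is the start base. In Ndufaf4 they are the NRF1 string GCGCATGCG, found on both strands at -113 and -112 in one overlapping run, and the SP/KLF string GGGCGG at -89 and -84. No searched string was present in the Uqcrfs1 window.

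Of the 98 members, 79 had a promoter entry, in 84 windows, and each share is given beside that over all 32851 windows of this length. CCGGAAG (ETS) was found in 25% of member windows and 8.86% of all windows, GCGCATGCG (NRF1) in 11.9% and 1.75%, AAGATGGCG (YY1) in 9.52% and 1.4%, and TCAAGGTCA (ERR) in 2.38% and 0.423%. GGGCGG (SP/KLF) stood in 45.2% and 35.7%. The interferon-type strings did not differ in this way: TTCNNTTTC (ISRE) was found in 8.33% of member windows and 8.56% of all, and TTCNNNGAA (GAS) in 7.14% and 8.3%. A match describes the letters of a window only.

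Over days 3 to 7, few nuclear respiratory chain genes were called between cKO and WT, and all of those on day 3. The test was the quasi-likelihood test of edgeR with Benjamini-Hochberg adjustment across the whole table, and a member was called at an adjusted p under 0.05, by edgeR unless another tool is named. On day 3, 2 of 92 tested members were higher and 4 lower in cKO, where 5.19% of all genes tested were higher and 2.54% lower. The median log2 fold change of the members was -0.17, with 73 of 92 below 0. The 10 catalytic and core subunits fixed for every comparison (Ndufs1, Ndufv1, Sdha, Sdhb, Uqcrc1, Uqcrfs1, Cox4i1, Cox5a, Atp5a1, Atp5b) ran only from -0.19 to 0.02, and none was called.

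The lower members on day 3 were accessory subunits. Cox7b, a small complex IV subunit, stood at 102, 70.6 and 68.5 CPM in WT and 46.6, 40.2 and 59.1 in cKO (log2 fold change -0.72, SE 0.185, adjusted p 0.0246, edgeR). All 3 cKO libraries lay under all 3 WT libraries. Ndufv3, an accessory subunit of the NADH-binding arm of complex I, was at 47.4, 33.3 and 37 in WT and 28.2, 28 and 28.1 in cKO (-0.48, SE 0.119, adjusted p 0.0197), also without overlap. Cox7a1, the muscle-type isoform of Cox7a, was at 4.23, 3.7 and 2.53 in WT and 2.01, 1.3 and 2.09 in cKO (-0.94, adjusted p 0.0405), and Atp5j, coupling factor 6 of ATP synthase and named after its values were seen, fell by 0.38 on the log2 scale (adjusted p 0.0458). Ndufaf7, a methyltransferase needed for complex I assembly, rose from 7.64, 8.51 and 10.7 to 14.6, 12.7 and 11.8 CPM (0.54, SE 0.139, adjusted p 0.025). Leaving out 1 library at a time gave 1 to 8 called members, 1 without WT replicate 1 or cKO replicate 2 and 8 without WT replicate 3. All 8 interferon genes were higher in cKO on day 3, and the neutrophil list summed to 1580 to 3040 CPM in WT and 2730 to 4200 in cKO.

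By days 5 and 7 no member was called. On day 5 the median was 0.05 over 92 members, and 2.83% of all genes were called in either direction; edgeR gave 1 member at an unadjusted p under 0.05 and DESeq2 called 0. On day 7 the median was -0.04 and 1.4% of all genes were called, with 9 members at an unadjusted p under 0.05 and 0 called by DESeq2. Medians by complex on day 7 lay between -0.13 (complex V) and -0.01 (complex I), while the 8 complex I assembly factors had a median of 0.29. In WT day 7, replicate 2 read differently from the others for some members: Cox7a2l was at 146 CPM against 61.7 and 57, and Atp5b at 362 against 738 and 545.

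Maturation from day 3 to day 7 lowered more members than genotype did. In WT, 21 of 92 members were lower and 1 higher on day 7, with 11.7% and 12.3% of all genes called in the same directions, and the median was -0.24. The falls reached into the catalytic core: 6 of the 10 core subunits were lower. Ndufs1, the large iron-sulfur subunit of complex I, went from 91.7, 88 and 88.8 CPM to 69.9, 53 and 57.8 (log2 fold change -0.57, SE 0.119, adjusted p 0.00392). Ndufv1, which carries the NADH-binding site, went from 70.5, 67.4 and 65.8 to 49, 41.5 and 42.6 (-0.61, SE 0.136, adjusted p 0.00549). No day 7 library of either gene reached the day 3 values. Atp5b fell by 0.70 (adjusted p 0.0166), Atp5a1 by 0.44, Uqcrfs1, the Rieske iron-sulfur protein of complex III, by 0.37 and Uqcrc1, a core protein of complex III, by 0.34 on the log2 scale.

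By complex, 7 of 16 members of complex V were lower in WT, 9 of 36 of complex I, 2 of 8 of complex III, 2 of 15 of complex IV and 0 of 4 of complex II. Atp5g1, a c-ring gene, had the largest fall (-0.84, adjusted p 0.0324), with WT values of 85.5, 72.8 and 74.3 CPM on day 3 and 68.2, 23.6 and 37.5 on day 7. The complex I assembly factor Ndufaf4 (-0.78) and the accessory subunit Ndufb3 (-0.70, adjusted p 0.0027) followed. The count of called members moved from 22 to 48 without WT day 7 replicate 1 and to 7 without WT day 3 replicate 1. Of the other pathway genes, 6 of 13 citric acid cycle genes were lower and none was higher, and 0 of the 7 mitochondrially encoded genes tested passed. All 8 neutrophil genes were lower and all 8 interferon genes higher on day 7 than on day 3 in WT.

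In cKO, 7 of 92 members were lower and 1 higher on day 7 (all genes: 7.7% lower, 6.32% higher), with a median of -0.16. Ndufb3 fell from 25.1, 24.5 and 21.8 CPM to 16.5, 14.9 and 14.1 (-0.65, SE 0.138, adjusted p 0.0054), close to its course in WT (25.2, 22.3 and 25 to 18.1, 14 and 12.4). Uqcrfs1 fell by 0.38 on the log2 scale in cKO. Ndufa2, an accessory subunit of complex I, and Uqcrh, the hinge protein of complex III, each fell by 0.50, and Ndufv3 rose (0.44, adjusted p 0.022). In cKO, 6 of the 7 mitochondrially encoded genes tested were higher on day 7. Leaving out single libraries gave 2 to 14 called members, 14 without cKO day 7 replicate 1.

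The test of the difference between these courses (cKO effect on day 7 minus day 3) called 1 of 92 members, Cox6a2, where 0.0439% of all genes tested were called. Cox6a2 encodes the heart and skeletal muscle isoform of a complex IV subunit. On day 3 it was at 0.0682, 0.293 and 0.337 CPM in WT and 2.07, 2.87 and 2.56 in cKO, from 1, 5 and 6 reads against 33, 42 and 49 (log2 fold change 3.35, SE 0.509, adjusted p 0.000898, edgeR). On day 7 it was at 0.73, 0.979 and 1.24 in WT and 0.882, 0.527 and 0.21 in cKO, so that the groups no longer stood apart in that direction. It rose with time in WT (log2 fold change 2.01, adjusted p 0.0141) and fell in cKO (-2.21, adjusted p 0.00444), and the difference of the effects was -4.22 (SE 0.698, adjusted p 0.0444). The call of the difference held without WT day 7 replicate 1 or 3 and was lost without any of the other 10 libraries, while DESeq2 gave Cox6a2 no adjusted p and called another member for this difference, the assembly factor Ndufaf2 (1, adjusted p 0.039), which edgeR did not call. Its partner Cox6a1 lay at 133 to 158 CPM in WT and 135 to 163 in cKO on day 3, with overlap.

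Across experiments Cox6a2 ranged from 0 to 0.071 CPM in peritoneal libraries to 39.9 in one WT library without antibody. Of its exon bases, 10.3% overlap Itgad on the other strand, and the libraries keep no strand. Reads that overlap both genes are counted for neither, so the values of Cox6a2 and Itgad do not cover the shared bases. Itgad was at 0.117 to 0.545 CPM in the WT and 0 to 0.105 in the cKO libraries of day 3, below Cox6a2 in every cKO library.

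**Figure D2:**
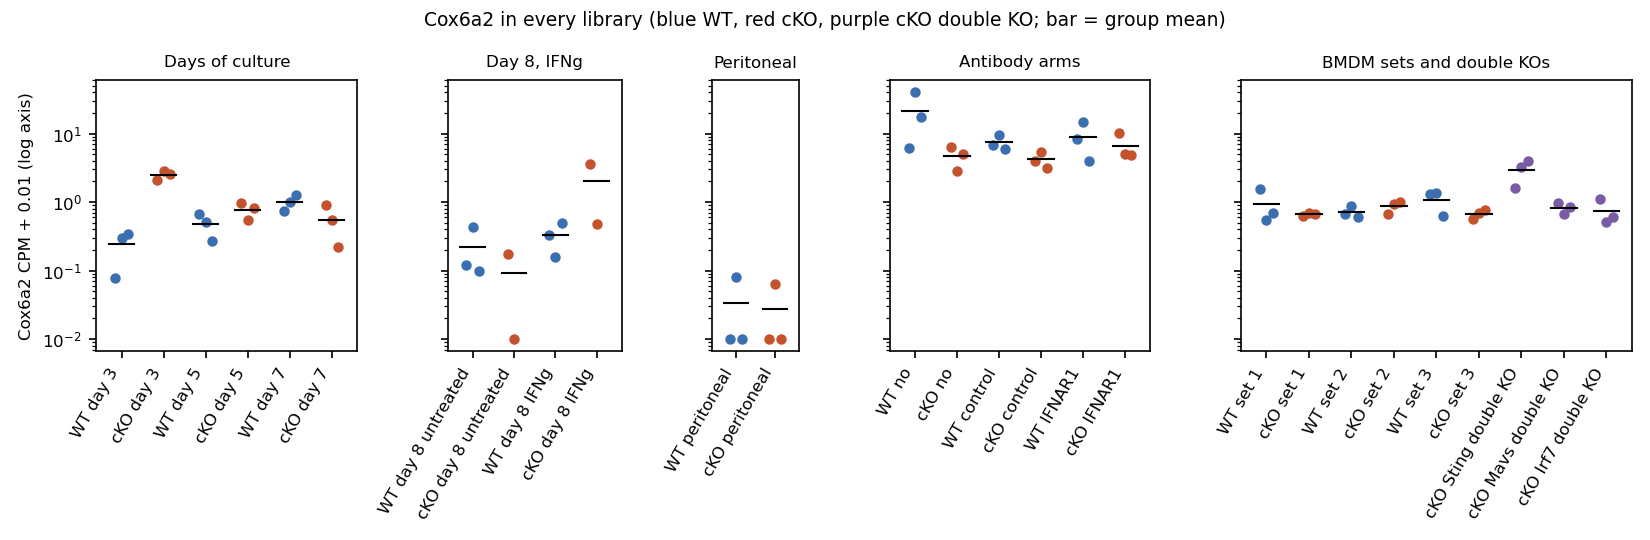
Cox6a2 in each library, as CPM plus 0.01 on a log axis, by experiment, with WT in blue, cKO in red, double KOs in purple and bars at group means. The 3 cKO libraries of day 3, at 2.07 to 2.87 CPM, stand above the 3 WT libraries at 0.0682 to 0.337.

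On day 8, before IFNg, no member was called between the genotypes. The median of 90 tested members was 0.02 with values from -0.26 to 0.36, and 0.612% of all genes were called. For the members, edgeR gave 0 at an unadjusted p under 0.05 and DESeq2 called 0. Without cKO IFNg replicate 1 in the shared fit, 0 were called as well. With 2 cKO libraries, differences of this size could not be told from the spread between replicates.

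After IFNg, many respiratory chain members were higher in WT cells. Of 90 members, 29 were higher and 1 lower after IFNg, against 20% and 20.1% of all genes in those directions, and the median log2 fold change was 0.43 where that of all genes was -0.009. Among all genes with an average log2 CPM above 5, the median was 0.164 and 30.9% were higher, close to the 32.2% of members. Without the library that stands apart, 60% of members and 41.2% of such genes were higher. The summed level of the 85 core subunits went from 4140, 4280 and 4391 CPM to 5810, 5704 and 6614, without overlap. Complexes III and IV had the highest medians, at 0.60 and 0.62, followed by II (0.49), V (0.40) and I (0.39), and complex III had 6 of 8 members higher, IV 6 of 13, V 6 of 16, II 2 of 4 and I 8 of 36. Without the library that stands apart the medians were 0.58 (III), 0.60 (IV), 0.47 (II), 0.38 (V) and 0.37 (I), and the counts were 7 of 8 in complex III, 12 of 13 in IV, 12 of 16 in V, 3 of 4 in II and 19 of 36 in I. The 8 complex I assembly factors had a median of -0.19, or -0.20 without it.

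Uqcrfs1 stood at 53.3, 50.2 and 54.4 CPM in untreated and at 98.9, 98.4 and 102 in IFNg-treated WT cells (log2 fold change 0.92, SE 0.164, adjusted p 0.00146, edgeR), and no untreated library came near the treated ones. Sdhd, a membrane anchor of complex II, went from 64.3, 62.1 and 69.4 to 112, 124 and 134 (0.92, adjusted p 0.00153). Atp5f1, subunit b of the ATP synthase stalk, went from 94.7, 94 and 101 to 194, 168 and 195 (0.95, adjusted p 0.000943), and Cox7b from 65.3, 73.9 and 70.1 to 125, 139 and 166 (1.04, adjusted p 0.0483). In each of these the treated libraries all lay above the untreated ones.

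Not every part of a complex took part. Sdhb, the iron-sulfur subunit of complex II, rose (0.68, adjusted p 0.0192), while Sdha, its flavoprotein, was at 158, 152 and 145 CPM untreated and 158, 137 and 137 treated and was not called. Ndufs1 was at 58.5, 54.7 and 55.6 and then 64.9, 69.7 and 63.6, and Ndufv1 at 39.8, 38.3 and 39.5 and then 32.8, 29.3 and 33, neither called. Of the fixed isoforms, Cox7a2l, which links complexes III and IV in supercomplexes (0.87), Cox8a (0.82) and Cox6b1 (0.77) rose. With replicate numbers as a block, which paired these libraries, Cox6b1 (adjusted p 0.068) and Atp5a1 (0.47, adjusted p 0.0563) lost their calls. Ndufaf2, an assembly factor of complex I, was the one lower member, at 5.27, 3.61 and 3.68 CPM untreated and 1.61, 2.23 and 2.17 treated (-1.06, SE 0.274, adjusted p 0.011). Of its exon bases, 65.6% overlap the gene B230220B15Rik on the other strand, which had at most 2 reads in any day 8 library. Reads that overlap both genes are counted for neither, so these counts do not cover the shared bases.

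The library that stands apart entered the WT test through the shared estimate of the spread. Without it, 58 WT members were called, 54 higher and 4 lower, against 25.9% and 25.8% of all genes, and the log2 fold changes were 0.90 for Uqcrfs1 (adjusted p 3.64e-06), 0.90 for Sdhd, 0.93 for Atp5f1, 1.02 for Cox7b and 0.67 for Sdhb, all called. Cox6b1 (adjusted p 0.000156) and Atp5a1 (0.00146) were called in that fit, which had no block. In that fit Ndufv1 was lower (-0.32, adjusted p 0.0176) and Ndufs1 higher (0.21, adjusted p 0.0463). Leaving out single WT libraries gave 11 to 20 called members, 11 without untreated replicate 1. Among the other pathway genes in WT, Acod1, which makes itaconate, was higher by 6.2 on the log2 scale, 1 citric acid cycle gene was higher and 3 were lower of 13, and 0 of 7 mitochondrially encoded genes passed. All 8 interferon genes were higher and 2 of 7 proliferation genes lower.

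**Figure D3:**
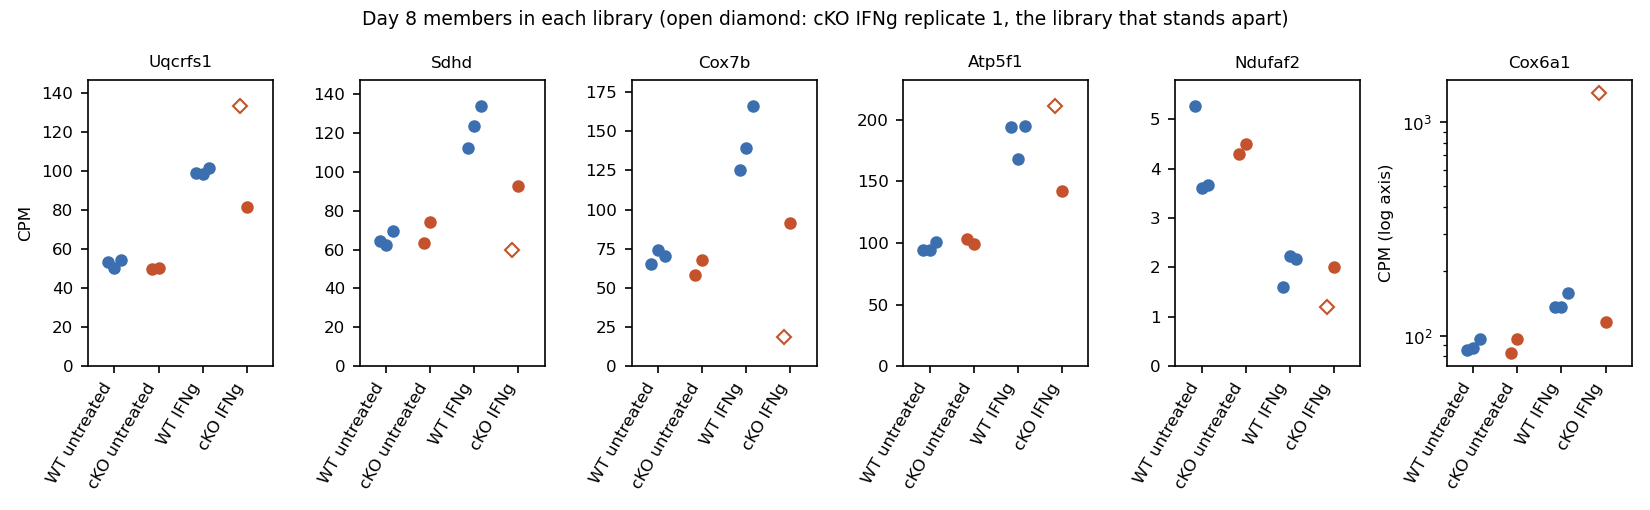
CPM of 6 members in each day 8 library, WT in blue and cKO in red, with cKO IFNg replicate 1 as an open diamond and a log axis for Cox6a1. Uqcrfs1 lies at 98.4 to 102 CPM in the WT IFNg libraries and 50.2 to 54.4 in the untreated ones, and the open diamond stands at 1370 CPM for Cox6a1 against 116 in the other cKO IFNg library.

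In cKO cells the median of the members after IFNg was 0.18, against 0.095 for genes with an average log2 CPM above 5. Of the members, 13 were higher and 2 lower (all genes: 17.2% and 16.4%). Without the library that stands apart, which leaves 1 IFNg library assumed to vary like the other groups, 13 were higher and 3 lower (21.7% and 19.3% of all genes). Its values differed most for small subunits: Cox6a1 was at 1370 CPM against 116 in replicate 2, Atp5e, the epsilon subunit of ATP synthase, at 316 against 69.7, Ndufa2 at 221 against 54.1, and Cox7b at 18.7 against 91.5. By complex, 2 members were higher in I, 1 in II, 2 in III, 4 in IV and 4 in V with it, and 3, 1, 2, 5 and 1 without it. Cox6a1 had a log2 fold change of 3.04 with it and 0.41 without it (adjusted p 0.0421).

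Uqcrfs1 was higher in cKO with either choice, from 50 and 50.6 CPM untreated to 133 and 81.9 (1.08, adjusted p 0.0029, with the library, and 0.73, adjusted p 0.000444, without it). Ndufaf4 was lower with either choice, from 11.8 and 12.3 to 2.41 and 5.89 (-1.30 with it, -1 and adjusted p 0.0134 without it). Ndufaf2 was called lower in both fits as well. The test of the difference between the genotypes called no member and 0% of all genes, edgeR gave 12 members at an unadjusted p under 0.05, and DESeq2 called 0. Without the library that stands apart 0 members were called as well, with 11 at an unadjusted p under 0.05. Leaving out cKO IFNg replicate 2 keeps only the library that stands apart, and more members were called in that fit than with both libraries. The share over all genes is not given for it, so its calls cannot be set against the whole table. When the 2 libraries of conflicting labels were placed by library name, 36 of 90 members were called in WT and 22 in cKO. Of all 13028 genes tested, 5591 were called in WT and 6026 in cKO with that placement. When the 2 libraries were placed by title, 0 members were called in either genotype (32 and 7 at an unadjusted p under 0.05). Of all 13028 genes tested, 2 were called in WT and 0 in cKO. The title placement takes the library with the interferon list at 859.3 CPM as IFNg-treated and the one at 10120 as untreated. Which label is right was not tested.

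In peritoneal macrophages no member was called between the genotypes. Of 89 tested members, 81 had a negative log2 fold change, the median was -0.19, and 0.971% of all genes were called. For the members, edgeR gave 0 at an unadjusted p under 0.05 and DESeq2 called 0. The WT group was spread by 1 high library: the 85 core subunits summed to 7140 ± 1240 CPM (SD, n = 3) in WT and 6510 ± 318 in cKO, and Uqcrfs1 was at 91.2, 74.7 and 59.7 in WT and 58.3, 71.8 and 58.6 in cKO. Sdha, at 509, 463 and 446 CPM in WT and 441, 431 and 522 in cKO, overlapped too. The lowest of the 10 core subunits was Cox5a (-0.56), and 6 of 8 interferon genes were higher in cKO.

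In the antibody experiment few members were called between the genotypes. Without antibody, 3 of 93 members were lower in cKO and 0 higher, with 3.72% of all genes lower. Cox7a2l was at 150, 188 and 149 CPM in WT and 81.8, 100 and 105 in cKO (-0.76, SE 0.184, adjusted p 0.0214). Uqcrfs1 was at 72.3, 106 and 89.3 in WT and 56.8, 54.7 and 52.4 in cKO (-0.71, SE 0.179, adjusted p 0.0264). For both genes all WT libraries lay above all cKO libraries. Cox6a2, at 6.2, 39.9 and 17.2 in WT and 6.29, 2.8 and 5.05 in cKO, was called (-2.15, adjusted p 0.0345) although the groups overlapped. The count was 12 without WT replicate 1 and 0 without any other single library, while DESeq2 called 10.

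With the control antibody, Ndufb10, a membrane-arm subunit of complex I, was lower in cKO (18.9, 15.7 and 16.1 CPM in WT, 9.72, 9.94 and 7.99 in cKO, -0.88, adjusted p 0.0498), 1 of 93 members where 1.57% of all genes were lower, and leaving out any of the 6 libraries ended the call. With the IFNAR1 antibody no member was called between the genotypes, and 0.675% of all genes were (1 member at an unadjusted p under 0.05 by edgeR, 0 called by DESeq2). Small differences could not be told from the spread between replicates. Medians of the 3 arms were -0.05, -0.10 and -0.06, and in each arm that of complex IV was the lowest of the 5 complexes, at -0.34, -0.17 and -0.23. All 8 interferon genes were higher in cKO without antibody and with control antibody, and 7 of 8 with the IFNAR1 antibody.

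IFNAR1 blockade against the control antibody changed 2 of 93 members in WT, 1 higher and 1 lower, with 6.83% and 3.06% of all genes in those directions. Cox6b2, the testis-type isoform, was at 1.11, 1.13 and 0.278 CPM with blockade and 0.07, 0.17 and 0.0915 with control antibody, from 29, 18 and 6 reads against 1, 3 and 1 (2.78, SE 0.721, adjusted p 0.0266), and DESeq2 gave it no adjusted p. Ndufa8, an intermembrane-space subunit of complex I, was at 33.5, 42.7 and 46 with blockade and 62.5, 52.4 and 55.7 with control antibody (-0.48, adjusted p 0.0472). WT IFNAR1 replicate 3 differed from the other 2 libraries for several members (Cox8a 89 CPM against 122 and 217), and without it 22 members were called. Blockade called no member in cKO, where 4.03% of all genes were called (12 members at an unadjusted p under 0.05, 2 called by DESeq2), and the difference of the effects called no member and 0% of all genes (1 at an unadjusted p under 0.05, 0 by DESeq2). With blockade, 5 of 7 proliferation genes were higher in WT and 4 of 7 in cKO.

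In each of the 3 sets of WT and cKO BMDMs more members were lower than higher in cKO. In set 1, 24 of 93 members were lower and 3 higher in cKO (all genes: 16.7% and 18%), in set 2, 16 lower and 2 higher (11.3% and 9.74%), and in set 3, 27 lower and 3 higher (18% and 16.9%). Well-expressed genes as a whole were lower in 20%, 20.8% and 22.9% of cases, against 25.8%, 17.2% and 29% of members. The medians over the members were -0.22, -0.23 and -0.24, against -0.031, -0.011 and -0.053 over all genes. Over well-expressed genes the medians were 0.045, -0.076 and 0.012. Of the 93 members, 64 were below 0 in all 3 sets.

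Complexes III and IV had the lowest medians in set 1 (-0.41 and -0.40) and set 3 (-0.38 and -0.44), and in set 2 complex IV (-0.38) stood below III (-0.26), V (-0.25), I (-0.22) and II (-0.01). Complex I was near -0.22 in every set. The complex I assembly factors did not follow, with medians of 0.27, 0.05 and 0.31. The flavoprotein Sdha was at 172, 190 and 191 CPM in WT and 204, 195 and 231 in cKO in set 1, and edgeR did not call it in any set, while DESeq2 called it higher in sets 1 and 3 (0.18 in both, adjusted p 0.0473 and 0.0472). Of the 10 core subunits, Cox4i1 was lower in sets 1 and 3 (-0.54 in both, adjusted p 0.00499 and 0.00492), as was Uqcrfs1 (-0.43 and -0.44), Sdhb in set 1 (-0.32) and Cox5a in set 2 (-0.39).

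Of 93 members, 6 were called lower in all 3 sets, which is 6.45% where 4.08% of all genes tested were. These 6, named after their values were seen, were Uqcr11, a small complex III subunit, the complex I accessory subunits Ndufa6 and Ndufa7, the ATP synthase genes Atp5d and Atp5mpl, and Sdhc, a membrane anchor of complex II. Uqcr11 was at 37.5, 47.7 and 62.8 CPM in WT and 30.9, 33.4 and 33.2 in cKO in set 1, at 37.4, 31.7 and 32.3 and then 21.1, 24.5 and 19.8 in set 2, and at 33.6, 63.7 and 51.7 and then 26.5, 39.9 and 33.4 in set 3, where the groups overlapped. It fell by 0.60, 0.63 and 0.58 on the log2 scale (adjusted p 0.0127, 0.0145 and 0.016). Sdhc fell by 0.31, 0.34 and 0.25 on the log2 scale. A further 16 members were lower in 2 sets, 17 in 1 set, and 54 in none.

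Other members moved in a set-dependent way, and the tests of these differences between sets were chosen after the values were seen. Cox7a2l was at 123, 114 and 94.2 CPM in WT and 69.3, 59.4 and 67.9 in cKO of set 1 (-0.75, SE 0.149, adjusted p 0.000326), at 131, 137 and 76.7 and then 62.7, 72 and 76.8 in set 3 (-0.70, adjusted p 0.000599), but at 53.1, 48.1 and 47.1 and then 83, 74.8 and 74.6 in set 2 (0.65, SE 0.149, adjusted p 0.00231). The cKO libraries thus lay between 59.4 and 83 in all sets, while the WT libraries of set 2 lay under them and most of those of sets 1 and 3 above. Uqcrh was at 71.2, 64.1 and 69 in WT and 41.3, 39.4 and 35.9 in cKO of set 1 (-0.81, adjusted p 1.02e-06), at 65.1, 88.4 and 69.7 and then 38.1, 46.3 and 41.6 in set 3 (-0.82, adjusted p 6.85e-07), and at 39.8, 40.7 and 39.3 and then 32.4, 34.6 and 32.3 in set 2 (-0.27, adjusted p 0.0532).

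Ndufaf4 showed the opposite order. It was at 9.01, 7.54 and 6.21 CPM in WT and 14.9, 14 and 13 in cKO of set 1 (0.88, SE 0.153, adjusted p 8.25e-05), at 5.08, 7.87 and 8.34 and then 13.4, 14.4 and 12.8 in set 3 (0.94, adjusted p 3.53e-05), and at 15, 16.5 and 17.7 and then 13.6, 12.6 and 12.6 in set 2. Again the cKO libraries were alike, between 12.6 and 14.9, and WT set 2 was the group that differed. Of 93 members, 8 differed in their cKO effect between sets 2 and 1 where 20% of all genes did, 6 between sets 2 and 3 (19.5%) and 0 between sets 1 and 3 (0%), where edgeR gave 0 members at an unadjusted p under 0.05. Cox6b2, at 2.25, 1.28 and 1.53 in WT and 0.983, 0.719 and 0.562 in cKO of set 1, was the largest called fall in set 1 (-1.15) and in set 3 (-1.30).

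**Figure D4:**
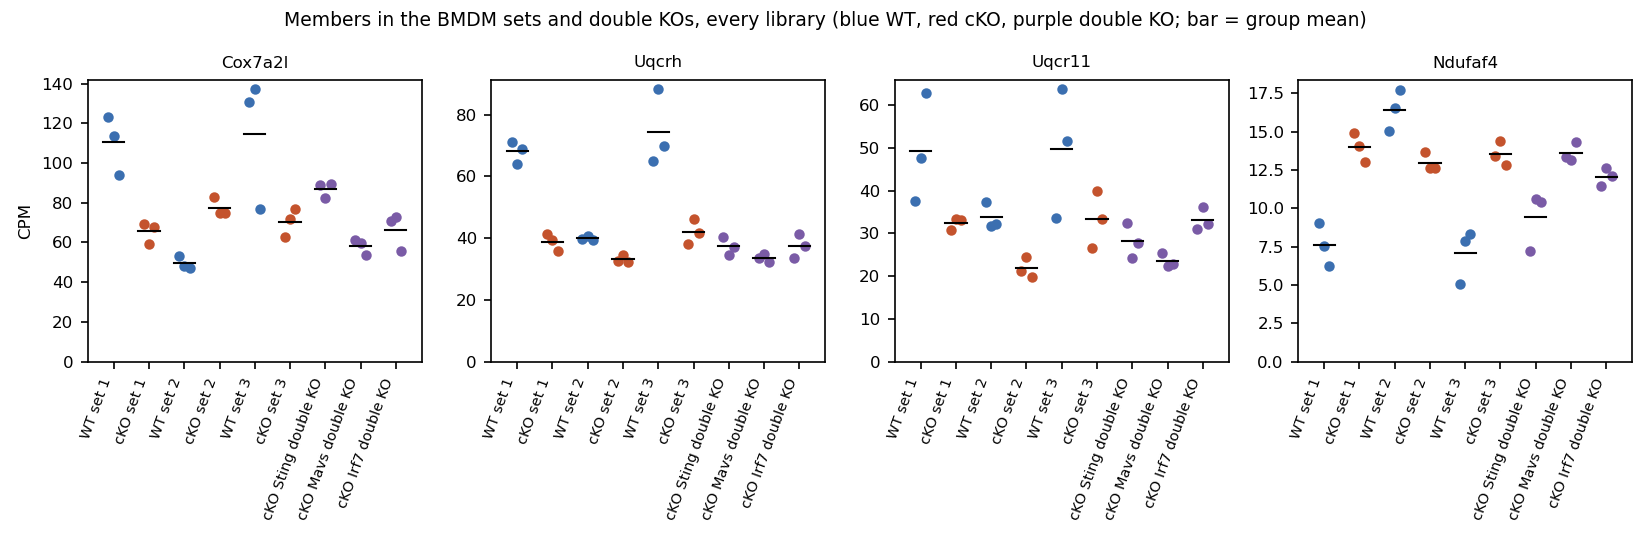
CPM of Cox7a2l, Uqcrh, Uqcr11 and Ndufaf4 in each library of the 3 sets and the double KOs, WT in blue, cKO in red, double KOs in purple, bars at group means. For Ndufaf4 the WT libraries of set 2 lie at 15 to 17.7 CPM and those of sets 1 and 3 at 5.08 to 9.01.

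Leaving out 1 library at a time gave 13 to 31 called members in set 1 (13 without WT replicate 3), 4 to 18 in set 2 (4 without cKO replicate 3) and 15 to 50 in set 3 (15 without cKO replicate 1, 50 without WT replicate 1). Other lists moved beside them. The neutrophil list was higher in cKO for 5 of 7 tested genes in sets 1 and 3 and 2 of 7 in set 2, with summed levels of 59.3 to 110 CPM in WT and 196 to 281 in cKO of set 1, 101 to 176 and 151 to 169 in set 2, and 66.5 to 120 and 194 to 319 in set 3, and each of the 8 listed genes had reads. Interferon genes were higher for 7, 8 and 7 of 8. The 7 mitochondrially encoded genes tested held 1 call, lower in set 2, and of 31 other assembly factors 6 were higher and 3 lower in set 1, 1 and 2 in set 2, and 6 and 5 in set 3.

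Each double KO was set against the mean of the 3 cKO groups, since the labels do not tie a set to a double KO. The deposited tables of the Irf7 double KO and set 3 list the same number of genes (54146), and those of the other double KOs and sets 55536, so that the values against set 3 are given beside the Irf7 result. The Sting double KO had 20 members higher and 8 lower (all genes: 18.9% and 17.2%) with a median of 0.09. Cox6a2 was at 1.6, 3.28 and 3.96 CPM against 0.551 to 0.999 in the 9 cKO libraries (2.02, SE 0.265, adjusted p 5.21e-06), without overlap. Ndufa13 (0.51) of complex I and Cox6b2 (1.07) were also higher, and 3 assembly factors had the largest falls: Sdhaf3 of complex II (-0.64, adjusted p 0.000664), at 1.99, 2.05 and 1.74 against 2.51 to 3.79, Ndufaf4 (-0.52) and Ndufaf2 (-0.49). Of the mitochondrially encoded genes, 6 of 7 were lower in the Sting double KO against this mean (median -0.93). The direction of the member calls turned on the reference set. Against set 1 alone 2 members were higher and 9 lower, against set 2 41 and 2, and against set 3 9 and 16.

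The Mavs double KO had 12 members lower, where 3.24% of all genes were lower, and 0 higher, with a median of -0.20. The largest falls were Sdhaf1, an assembly factor of complex II (-1.09, adjusted p 0.011), Ndufa1 of complex I (-0.73) and Cox6c of complex IV (-0.67). Sdhaf1 shares 69.6% of its exon bases with E130208F15Rik on the other strand. Against cKO set 2 alone, edgeR called 0 of 93 members in the Mavs double KO and 88 of 18083 genes, with 1 member at an unadjusted p under 0.05. The 12 calls thus rest on sets 1 and 3 as part of the reference. The Irf7 double KO had 5 members higher and 1 lower (4.36% and 5.5%), led by Ndufa1 (0.67, adjusted p 0.000283) and Cox6c (0.63), followed by Ndufa11 of complex I (0.48) and Sdhaf2, which helps to attach the flavin to Sdha, lower (-0.30). Against cKO set 3 alone, edgeR called 0 members in the Irf7 double KO, with 2 at an unadjusted p under 0.05, so that these 6 calls rest on sets 1 and 2 as part of the reference.

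These counts turned on the cKO set used as the reference. Against set 1, 2 or 3 alone, the Sting double KO had 11, 43 and 25 of 93 members called, the Mavs double KO 20, 0 and 25, and the Irf7 double KO 6, 32 and 0. Of all 18083 genes tested, 4069, 6094 and 5737 were called for Sting. For Mavs these counts were 2322, 88 and 3268, and for Irf7 1415, 3545 and 161. For Ndufa1, the cKO libraries stood at 12 to 14.7 CPM in set 1, 7.87 to 10.1 in set 2 and 14.9 to 21.7 in set 3, next to 7.63 to 7.93 in the Mavs and 19.7 to 21.2 in the Irf7 double KO. The Mavs values thus sat beside cKO set 2 and the Irf7 values beside cKO set 3, and for these members the set and the double KO cannot be told apart. Cox6a2 in the Sting double KO lay above the cKO libraries of all 3 sets.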

How the data were processed

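RNA of mouse macrophages was sequenced in 81 libraries, of which 79 entered comparisons. The deposited values are counts per gene from STAR, made by the authors after trimming with Cutadapt and alignment to mm10. Reads that map to several places or overlap 2 genes are not in these counts, and the column without strand was used. Members with near-identical copies or overlapping genes are therefore less certain, and 36 of 98 members share exon bases with another gene. Columns of other samples numbered 0.

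Genes were filtered within each experiment with filterByExpr (minimum count 10, minimum total 15), which left 12361 to 18083 genes and 89 to 93 members. Libraries were scaled by TMM, and all groups of an experiment shared one model in edgeR 4.0.16 (R 4.3.3, quasi-likelihood test, Benjamini-Hochberg adjustment over all genes tested). CPM use the TMM-scaled library size, apart from those of the 2 libraries with conflicting labels, and SDs are between libraries. Assigned counts ran from 3614967 to 45581528 per library, so that members of few reads (Cox6a2, Cox6b2) are the least precise. All 77 within-group pairs of libraries differed by more than sampling noise (chi-square per degree of freedom 3.48 to 301).

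Members and lists were chosen with earlier results of these data known. Named members were 10 catalytic or core subunits, 15 isoforms and, per comparison, up to 3 called members with the largest rises and 3 with the largest falls, and others were named after their values were seen. Alternatives were DESeq2 1.42.0, RLE size factors, no filter, a replicate block, single reference sets, placing the conflicting libraries by either label, and leaving out each library. Same-numbered libraries deviated together (every pair above 0.1) in 5 of 17 comparisons: WT IFNg (0.33 to 0.45), peritoneal (0.14 to 0.19), day 3 (0.13 to 0.42), day 7 (0.15 to 0.47) and cKO day 7 against day 3 (0.14 to 0.42). Promoter windows came from RefSeq (GRCm38.p6). P-values measure the spread between these libraries, since nothing in the labels ties them to separate animals.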

Additional observations from a re-analysis of the deposited data

Results flagged for a closer look

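The change in the cKO effect on Cox6a2 between days 3 and 7, at -4.22 on the log2 scale (SE 0.698, adjusted p 0.0444, edgeR), was singled out because the effects of genotype at these days differed in a test of the difference itself.

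The cKO effect of set 2 differed from that of set 1 for 8 of 93 members, by the same kind of test, where 20% of all genes tested differed. The differences, set 2 minus set 1, were 1.4 for Cox7a2l, 0.54 for Uqcrh, 0.41 for Uqcrfs1, -0.48 for Cox5a, -0.65 for Uqcrb, -0.73 for Ndufab1, -0.85 for Ndufs5 and -1.22 for Ndufaf4. Against set 3, where 19.5% of all genes tested differed, the called differences were 1.35 for Cox7a2l, 0.55 for Uqcrh, 0.42 for Uqcrfs1, -0.53 for Ndufab1, -0.67 for Ndufs5 and -1.28 for Ndufaf4. Uqcrb belongs to complex III, Cox5a to complex IV, and Ndufs5 and Ndufab1 (the mitochondrial acyl carrier protein) to complex I. These comparisons between sets were chosen after the values were seen.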

How the results depend on the processing

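Counts below are called members. For fits that leave out 1 library, here and above, the share over all genes is given only for the fit without cKO IFNg replicate 1. The other leave-out counts show only how far the calls moved. DESeq2 called 11 on day 3 (edgeR 6), 13 for cKO day 7 against day 3 (8), 23 for IFNg in cKO (15), 10 without antibody (3), 4 with control antibody (1), and 5 and 2 for IFNAR1 blockade in WT (2) and cKO (0). RLE size factors gave 0 with control antibody. Without a filter the counts were 2 on day 3, 12 and 3 for day 7 against day 3 in WT and cKO, 2 for the IFNg difference, 0 with control antibody, 22 for the Mavs and 14 for the Irf7 double KO. Placed by library name, the conflicting libraries gave 36 for IFNg in WT and 22 in cKO, with 21 of 21 named values keeping their call. Placed by title, they gave 0 and 0. Over all 13028 genes tested, the counts were 5591 and 6026 by library name and 2 and 0 by title. With set 1 as the only reference the Sting and Mavs double KOs had 11 and 20. With set 2 the Sting, Mavs and Irf7 double KOs had 43, 0 and 32, and with set 3 the Mavs and Irf7 double KOs had 25 and 0. The counts over all genes for these references are given with the double KO results. Atp5g2 in the Sting double KO turned to -0.04 against set 1, and Cox6c in the Mavs double KO to 0.04 against set 2. Where a count moved, the cause was not tested.

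With the replicate block, the counts were 9 for IFNg in cKO and 1 for IFNAR1 blockade in cKO, neither of which is a paired comparison, and no other count moved by more than 1.5 times. In the 5 paired comparisons the block gave 21 for WT IFNg, 0 in peritoneal cells, 6 on day 3, 0 on day 7 and 11 for cKO day 7 against day 3.

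Leaving out 1 library at a time gave 1 to 8 on day 3, 0 to 2 on day 7 (2 without WT day 7 replicate 3), 7 to 48 for WT and 2 to 14 for cKO day 7 against day 3, 0 to 1 for their difference, 11 to 20 for WT IFNg, 2 to 49 for cKO IFNg (2 without either untreated library) and 0 to 40 for the IFNg difference. In the antibody arms it gave 0 to 12 without antibody, 0 with control antibody, 0 to 1 with IFNAR1 antibody (1 without WT replicate 3) and 0 to 22 for blockade in WT. It gave 13 to 31 in set 1, 4 to 18 in set 2, 15 to 50 in set 3, 10 to 28 for the Sting (10 without its replicate 3), 4 to 15 for the Mavs (4 without any of its replicates) and 3 to 7 for the Irf7 double KO (3 without its replicate 1 or 2). Without cKO IFNg replicate 1, a fit added after seeing the data, WT IFNg had 58.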

Other observations

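The 2 day 8 cKO libraries whose labels conflict entered no comparison. Their CPM were scaled by total counts alone, without a TMM factor, and are not on the scale of the other day 8 CPM. The TMM factors of the labelled cKO libraries were 1.25 and 1.193 untreated and 0.46 and 0.8913 after IFNg. The first held 9674853 counts, with the 85 core subunits at 5340 CPM, the interferon list at 859.3, Uqcrfs1 at 69.5, Cox6a1 at 118, Uqcrh at 48.1 and Ndufaf4 at 17.6. The second held 10498769 counts, with the core subunits at 4413 CPM, the interferon list at 10120, Uqcrfs1 at 75.3, Cox6a1 at 112, Uqcrh at 41.4 and Ndufaf4 at 6.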
